A study of Mus musculus with 5 samples.

Results

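Transcripts of 141 genes for ion channels and purinergic receptors were followed in sorted mature CD8 single-positive thymocytes of mice, which are future CD8 T cells close to their exit from the thymus. The genes were taken by symbol from the 35976 genes of the count tables: every name that starts with Kcn (potassium channel subunits), Trpc, Trpm or Trpv (transient receptor potential, TRP, cation channels), P2rx or P2ry (purinergic receptors), Orai or Stim (store-operated calcium entry). The symbol rule itself uses no measured value, although earlier results of these data were known when it was chosen. The prefixes also take in 7 genes that encode no channel or receptor subunit: the RNA Kcnq1ot1, the antisense RNAs Kcnd3os, Kcnmb4os1, Kcnmb4os2 and Trpc5os, the receptor-associated protein Trpc4ap and the putative regulator Kcnrg. RNA-seq libraries came from sorted cells of wild-type mice (Runx3 +/+, n = 2) and of mice that carry 1 WRPW allele of Runx3 beside 1 normal allele (Runx3 +/WRPW, n = 3). The labels give no treatment, age or sex, and do not say whether the libraries of a genotype came from separate animals. The p-values therefore measure the spread between these libraries, which may be technical.

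As background, a T cell that meets antigen empties the calcium store of its endoplasmic reticulum. Stim proteins sense the loss and open Orai pores in the plasma membrane, and the calcium that enters drives calcineurin and NFAT. Potassium channels keep the membrane potential negative, which holds up the driving force for calcium entry, while P2X receptors are cation channels opened by extracellular ATP and P2Y receptors are coupled to G proteins.

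Total counts per library ran from 15715242 to 43758550. Cd8a stood at 2159 to 2621 CPM (the count of a gene per library total, scaled to 1e6) and Cd4 at no more than 5.25 CPM, as the cell label asks for. Runx3 +/WRPW library 2 stood apart. It had a count at 27414 genes, against 17237 to 18967 in the other 4 libraries, and summed levels of the thymic epithelial, dendritic, natural killer and innate-like T, and myeloid marker lists of 10.9 to 14.1 CPM against 0.777 to 6.82 CPM in the others. The B cell list was at 12.9 CPM there and at 3.16 to 9.66 CPM elsewhere. The erythroid list, with its 2 alpha-globin genes at 0 in every library, did not exceed 0.846 CPM anywhere. Among the neuronal markers, Rbfox3 (12.8 CPM), Snap25 (5.09 CPM), Syt1 (2.61 CPM) and Stmn2 (1.08 CPM) also stood high in library 2, where no other library exceeded 0.0924 CPM for any of them. Tubb3, the fifth, was at 25.4 and 47.5 CPM in Runx3 +/+ and at 7.06, 10.1 and 6.31 CPM in Runx3 +/WRPW. Of the endothelial markers, Pecam1, which T cells can also express, was at 181 and 140 CPM in Runx3 +/+ and at 100, 82.0 and 76.8 CPM in Runx3 +/WRPW, while Cdh5 and Kdr did not exceed 1.65 CPM in any library. The numbers of genes at 1 CPM and the total numbers of calls are given below with and without library 2. Medians, counts of genes without overlap and calls per class of gene include it. The part of the marker differences in the results was not tested.

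A mean of 1 CPM in at least 1 genotype was reached by 53 of the 141 genes. All 53 reached it in Runx3 +/WRPW and 33 of them in Runx3 +/+ as well, which left 20 that reached it in Runx3 +/WRPW alone. Library 2 of that genotype supplied most of this surplus. Without it 36 genes reached 1 CPM, so 17 did so through it alone. In single libraries the number at 1 CPM or more was 33 and 34 in Runx3 +/+ and 36, 73 and 35 in Runx3 +/WRPW libraries 1, 2 and 3, and 33 genes were at 1 CPM or more in all 5.

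The 17 genes carried by library 2 are channel genes best known from nerve, muscle or epithelium, such as Kcnma1 (a large-conductance calcium-activated potassium channel), Kcng3 (a silent partner of voltage-gated subunits), Kcnk10 (a leak channel), Kcnq3 and Trpm3. Kcng3 was at 7.51 CPM and Kcnma1 at 7.25 CPM in library 2, and neither exceeded 0.297 CPM in another library. Kcnk10, Kcnq3, Trpv3, Kcnt2, Kcnc2 and Kcnj4 had counts in library 2 and 0 counts in the 4 others. The floor of 3 counts that was set for a count of 0 corresponds to 0.0686 to 0.139 CPM in those 4 libraries. Over all 141 genes, 34 had counts in library 2 only and 8 had none in any library. The 97 genes that failed the count filter summed to 108 CPM in library 2 and to 2.36 to 3.86 CPM in each other library. Across these 97 genes the count in library 2 and the exon length had a Spearman correlation of 0.53, as a description over genes that share this 1 library. Of the 17 genes, 14 were too low to test and the other 3 (Kcnj13, P2rx3 and Kcnmb3) did not pass. These 17 genes are therefore not described as expressed in Runx3 +/WRPW cells.

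**Figure D1:**
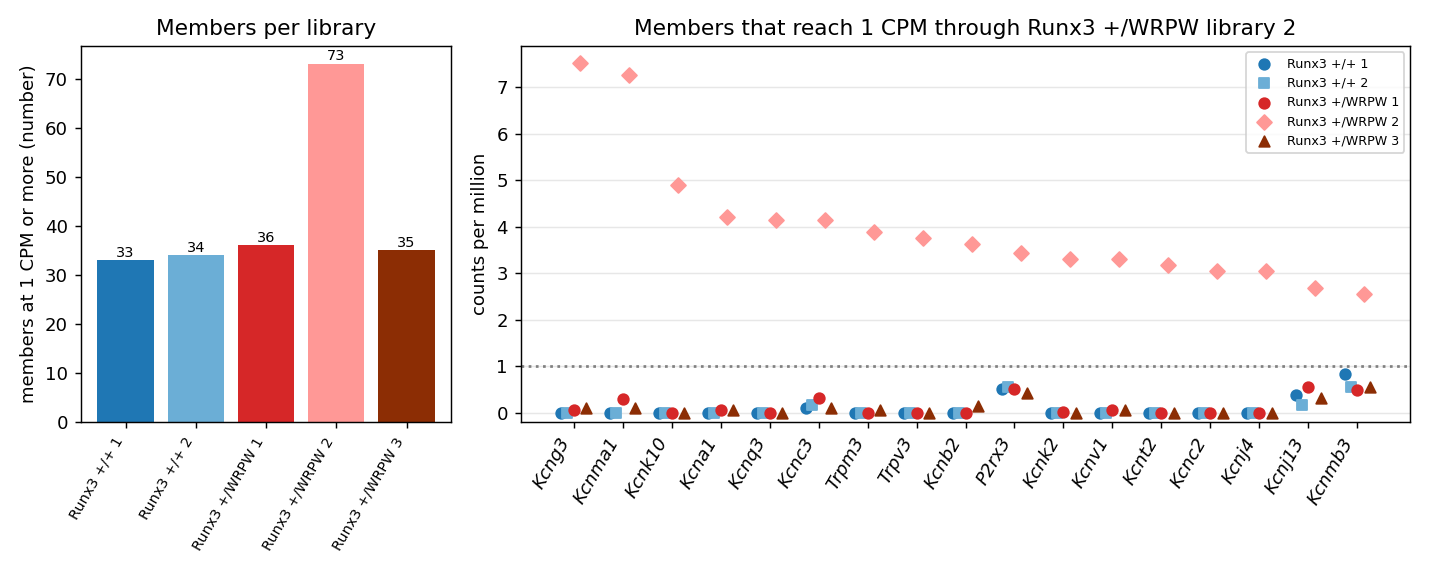
Left, number of channel and receptor genes at 1 CPM or more in each library (bars from 0); right, CPM of the 17 genes that reach a mean of 1 CPM only through Runx3 +/WRPW library 2, 1 point per library, dotted line at 1 CPM. Library 2 holds 73 genes against 33 to 36 elsewhere, and its points alone lie above the line.

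Of the 141 genes, 44 passed the low-count filter, and 13 of them changed in edgeR's quasi-likelihood test at an adjusted p under 0.05, 10 higher and 3 lower in Runx3 +/WRPW. Over all 13666 genes tested 13.6% changed, with 6.24% higher and 7.33% lower. The 39 tested genes that also reach 1 CPM held 12 of the calls (9 higher, 3 lower), where 14.6% of all tested genes at that level changed (6.71% higher, 7.94% lower). All 12 also reach 1 CPM without library 2. A gene can pass the filter through the genotype in which it is high, so these counts describe the set and are not used as support. The median log2 fold change was 0.08 over the 44 genes and 0.02 over all genes tested, and the median absolute value 0.56 against 0.22. At least a 2-fold change was fitted for 7 of the 10 higher genes and 0 of the 3 lower ones, and over all genes for 315 of 853 higher and 367 of 1002 lower ones. Every Runx3 +/WRPW library was above both Runx3 +/+ libraries for 13 of the 44 and below for 9, where all genes tested gave 27.7% above and 21.1% below. In these bulk samples fewer cells that carry a transcript and less of it per cell cannot be told apart.

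The number of calls depended most on the Runx3 +/+ libraries: it was 6 without Runx3 +/+ library 1 and 3 without library 2, fits that rest on a single Runx3 +/+ library assumed to vary like the other genotype. Without Runx3 +/WRPW libraries 1, 2 and 3 in turn it was 8, 13 and 9. The 13 without Runx3 +/WRPW library 2 (9 higher, 4 lower) were not the same genes. Orai1 and Orai3 were lost there, and P2rx4 and Trpm4 were added. Kcnj15 and Kcnk6 passed in all 13 alternative analyses, while Kcnf1, Kcnk5 and Kcnab2 failed only without Runx3 +/+ library 2.

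**Figure D2:**
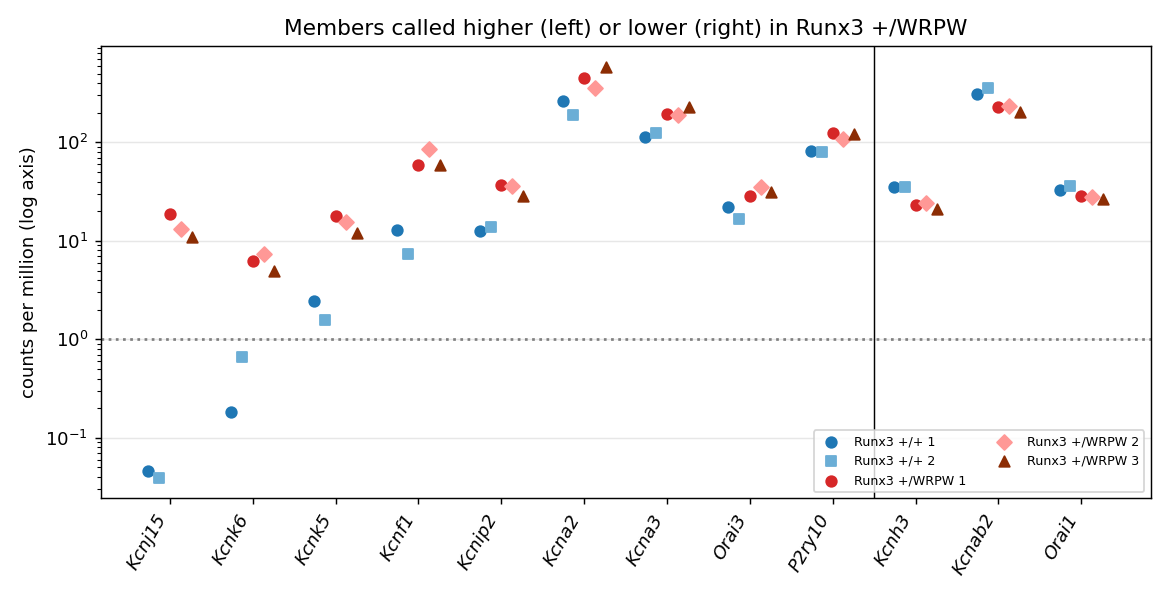
CPM (log axis) of the 12 changed genes that reach 1 CPM, 1 point per library, higher genes left of the vertical line and lower genes right of it, dotted line at 1 CPM. For each gene the 3 Runx3 +/WRPW points and the 2 Runx3 +/+ points do not overlap, and Kcnj15 and Kcnk6 lie below 1 CPM in both Runx3 +/+ libraries.

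Among the genes at 1 CPM or more, the largest rises were in genes of potassium channels that are open near the resting potential, the inward rectifier Kcnj15 and the tandem-pore leak channels Kcnk5 and Kcnk6, together with the voltage-gated subunit Kcnf1 and the accessory subunit Kcnip2. For the 4 of these 5 genes that matched the RefSeq promoter table, the 250 bases before an annotated transcript start (GRCm38.p6, the assembly that mm10 names) are shown because they belong to genes with a wide gap between genotypes. The window of Kcnip2 lies inside the gene's span, before the start of an internal transcript. Capitals mark TGTGGT or TGCGGT on either strand, the core letters to which Runx proteins bind.
Kcnj15 promoter (chr16:95257308-95257557, plus strand): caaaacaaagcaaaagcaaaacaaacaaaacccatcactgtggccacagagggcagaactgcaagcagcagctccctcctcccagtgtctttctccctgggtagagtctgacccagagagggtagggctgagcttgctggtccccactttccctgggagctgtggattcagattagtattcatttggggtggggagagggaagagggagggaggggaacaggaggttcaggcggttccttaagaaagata
Kcnk5 promoter (chr14:20181783-20182032, minus strand): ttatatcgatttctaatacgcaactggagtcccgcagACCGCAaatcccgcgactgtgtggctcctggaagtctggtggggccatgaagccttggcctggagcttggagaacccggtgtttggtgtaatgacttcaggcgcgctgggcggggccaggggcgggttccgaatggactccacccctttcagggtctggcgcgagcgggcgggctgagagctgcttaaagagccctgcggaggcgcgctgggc
Kcnf1 promoter (chr12:17176889-17177138, minus strand): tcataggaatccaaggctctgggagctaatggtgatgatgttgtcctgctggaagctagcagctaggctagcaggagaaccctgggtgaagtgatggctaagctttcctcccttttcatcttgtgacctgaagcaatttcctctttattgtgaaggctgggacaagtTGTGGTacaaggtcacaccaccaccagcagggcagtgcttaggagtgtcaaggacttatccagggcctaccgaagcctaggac
Kcnip2 promoter (chr19:45816064-45816313, minus strand): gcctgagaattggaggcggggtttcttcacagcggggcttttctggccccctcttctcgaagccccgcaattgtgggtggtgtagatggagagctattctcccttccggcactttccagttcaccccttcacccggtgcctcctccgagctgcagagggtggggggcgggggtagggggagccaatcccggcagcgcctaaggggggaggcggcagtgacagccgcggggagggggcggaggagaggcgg
Kcnf1 held 1 TGTGGT, Kcnk5 held 1 TGCGGT on the opposite strand, and Kcnj15 and Kcnip2 held neither in this window. Of all 32851 promoters in the table, 18.6% held at least 1 of these motifs in the same 250 bases, as did 27 of 144 promoters (18.8%) of 109 of the channel and receptor genes. The higher genes had a motif in 6 of 12 promoters (9 genes), the lower genes in 0 of 4 (2 genes), and the tested genes that did not pass in 4 of 33 (25 genes). A match shows letters, not binding, and these counts were not tested.

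Kcnj15 (chromosome 16, 95257558 to 95300260) had 1 count in each of the Runx3 +/+ libraries. In Runx3 +/WRPW libraries 1, 2 and 3 it was at 18.8, 13.2 and 11.1 CPM. The ratio of pooled counts, 1271 against 2, was 369 per total (95% interval 102 to 3046, exact conditional binomial, counting error only; edgeR adjusted p = 0.000867). Its exons overlap those of the antisense gene Gm49643 over 333 bases, and counts on either strand cannot be told apart without strand. It was the only one of 15 inward rectifier genes to pass 1 CPM without library 2.

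Kcnk5 (chromosome 14, 20140057 to 20181782), a leak channel sensitive to pH and cell volume, was at 2.45 and 1.57 CPM in Runx3 +/+ and at 17.9, 15.6 and 12.0 CPM in Runx3 +/WRPW. The lowest Runx3 +/WRPW library was thus well above the highest Runx3 +/+ library, and the fitted rise was 7.44-fold (log2 2.90 ± 0.27 SE, edgeR adjusted p = 0.00285). Without Runx3 +/+ library 2 the log2 change was 2.60 with an edgeR adjusted p = 0.0501.

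Kcnk6 (chromosome 7, 29221928 to 29232522), another leak channel, went from 0.185 and 0.666 CPM, or 4 and 17 counts, to 6.31, 7.32 and 4.94 CPM. All Runx3 +/WRPW libraries were again above both Runx3 +/+ libraries, by 13.8-fold in the fit (log2 3.78 ± 0.53 SE, edgeR adjusted p = 0.00934). Of the 14 tandem-pore genes, the remaining one above 1 CPM without library 2 was Kcnk7, at 1.33 ± 0.115 CPM (SD, n = 2) and 1.36 ± 0.314 CPM (SD, n = 3).

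Among the 40 voltage-gated potassium channel genes, 3 rose, 1 fell and 6 did not pass. Kcnf1 (chromosome 12, 17172100 to 17176888) encodes a subunit that forms no channel alone and modifies other voltage-gated subunits. It was at 12.9 and 7.36 CPM in Runx3 +/+ and at 58.8, 86.4 and 58.5 CPM in Runx3 +/WRPW, a 6.57-fold rise (log2 2.72 ± 0.29 SE, edgeR adjusted p = 0.00394). Without Runx3 +/+ library 2 the log2 change was 2.35 with an edgeR adjusted p = 0.0520.

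Kcna3 (chromosome 3, 107036162 to 107038129), the main voltage-gated potassium channel of T cells, was at 113 and 123 CPM in Runx3 +/+. It was at 193, 191 and 229 CPM in Runx3 +/WRPW, so that the genotypes did not overlap, and the rise was 1.70-fold (log2 0.76 ± 0.11 SE, edgeR adjusted p = 0.0104). The call was lost without Runx3 +/+ library 1 (log2 0.66, edgeR adjusted p = 0.159) or 2 (log2 0.83, edgeR adjusted p = 0.131).

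Kcna2 (chromosome 3, 107090883 to 107115005), which encodes a related channel best known from axons, lies 52.8 kb downstream of Kcna3 on the same strand. It was at 264 and 192 CPM in Runx3 +/+ and at 454, 354 and 589 CPM in Runx3 +/WRPW, a 2.01-fold rise (log2 1.01 ± 0.25 SE, edgeR adjusted p = 0.0467). The spread within each genotype was wide, and the call was lost when any library other than Runx3 +/WRPW library 2 was left out, with edgeR adjusted p values of 0.0815 to 0.426. It was also lost with robust dispersions (edgeR adjusted p = 0.0604) and with no low-count filter (edgeR adjusted p = 0.0900). Kcna10, the next gene of this cluster, had 1 count in all libraries together.

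Kcnh3 (chromosome 15, 99224517 to 99242818), a channel of the ether-a-go-go family, was at 35.5 and 34.8 CPM in Runx3 +/+ and at 23.1, 24.1 and 21.2 CPM in Runx3 +/WRPW. That fall of 1.58-fold (log2 -0.66 ± 0.08 SE, edgeR adjusted p = 0.00701) was larger than the spread of either genotype and was lost without Runx3 +/+ library 2 (log2 -0.67, edgeR adjusted p = 0.0625). Its relative Kcnh2 was at 52.8 and 31.1 CPM in Runx3 +/+ and at 38.7, 34.9 and 32.2 CPM in Runx3 +/WRPW, and these ranges overlapped (log2 -0.27, edgeR adjusted p = 0.456). Without Runx3 +/+ library 1 its log2 difference was 0.11. Kcnc1, a fast voltage-gated channel of neurons, did not pass either, at 51.8 ± 5.78 CPM (SD, n = 2) and 59.5 ± 9.51 CPM (SD, n = 3).

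Accessory subunits moved both ways, with 2 higher, 1 lower and 5 not passing of 8 tested. Kcnab2 (chromosome 4, 152390744 to 152477549), the beta subunit that docks to Kcna channels, was at 310 and 360 CPM in Runx3 +/+. It was at 227, 234 and 206 CPM in Runx3 +/WRPW, all below the Runx3 +/+ libraries, a fall of 1.54-fold (log2 -0.62 ± 0.09 SE, edgeR adjusted p = 0.0106). The beta subunit and its partners Kcna2 and Kcna3 therefore had opposite signs in the same libraries. Without Runx3 +/+ library 2 the log2 change of Kcnab2 was -0.51 with an edgeR adjusted p = 0.105.

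Kcnip2 (chromosome 19, 45792346 to 45816422), a calcium-binding partner of Kcnd channels, went from 12.7 and 13.7 CPM to 36.7, 35.7 and 28.5 CPM. The rise was 2.50-fold (log2 1.32 ± 0.14 SE, edgeR adjusted p = 0.00361) and was lost, narrowly, without Runx3 +/+ library 1 (log2 1.23, edgeR adjusted p = 0.0517) or 2 (log2 1.38, edgeR adjusted p = 0.0613). Kcnip3, a relative that also acts in the nucleus, is named after its values were seen, as the called gene below 1 CPM. Neither Runx3 +/+ library had a count, while the 3 Runx3 +/WRPW libraries had 34, 8 and 15, or 0.777, 0.509 and 0.686 CPM. Set against 3 counts for the Runx3 +/+ libraries together, this was at least 11.02-fold higher (edgeR adjusted p = 0.0207). Without any one library other than Runx3 +/WRPW library 2, Kcnip3 did not pass, with edgeR adjusted p values of 0.0628 to 0.345, nor with no low-count filter (edgeR adjusted p = 0.172). Kcnd1, the gene of a channel that Kcnip proteins bind, was at 2.92 ± 0.641 CPM (SD, n = 2) and 3.02 ± 1.44 CPM (SD, n = 3) and did not pass. Kcnmb4, a beta subunit of the large-conductance calcium-activated channel, had a mean of 10.4 CPM in each genotype (log2 -0.04, edgeR adjusted p = 0.862). Its exons overlap those of the antisense RNAs Kcnmb4os1 and Kcnmb4os2, and without strand such reads cannot be told apart.

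Kcnn4, the calcium-activated potassium channel of lymphocytes, did not pass, at 176 and 227 CPM in Runx3 +/+ and 210, 218 and 204 CPM in Runx3 +/WRPW. The Runx3 +/WRPW libraries lay between the Runx3 +/+ libraries. The log2 difference of 0.03 had a 95% interval of -0.25 to 0.31 and was -0.18 without Runx3 +/+ library 1. It was the only one of 8 genes of calcium- or sodium-activated potassium channels to pass the count filter.

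**Figure D3:**
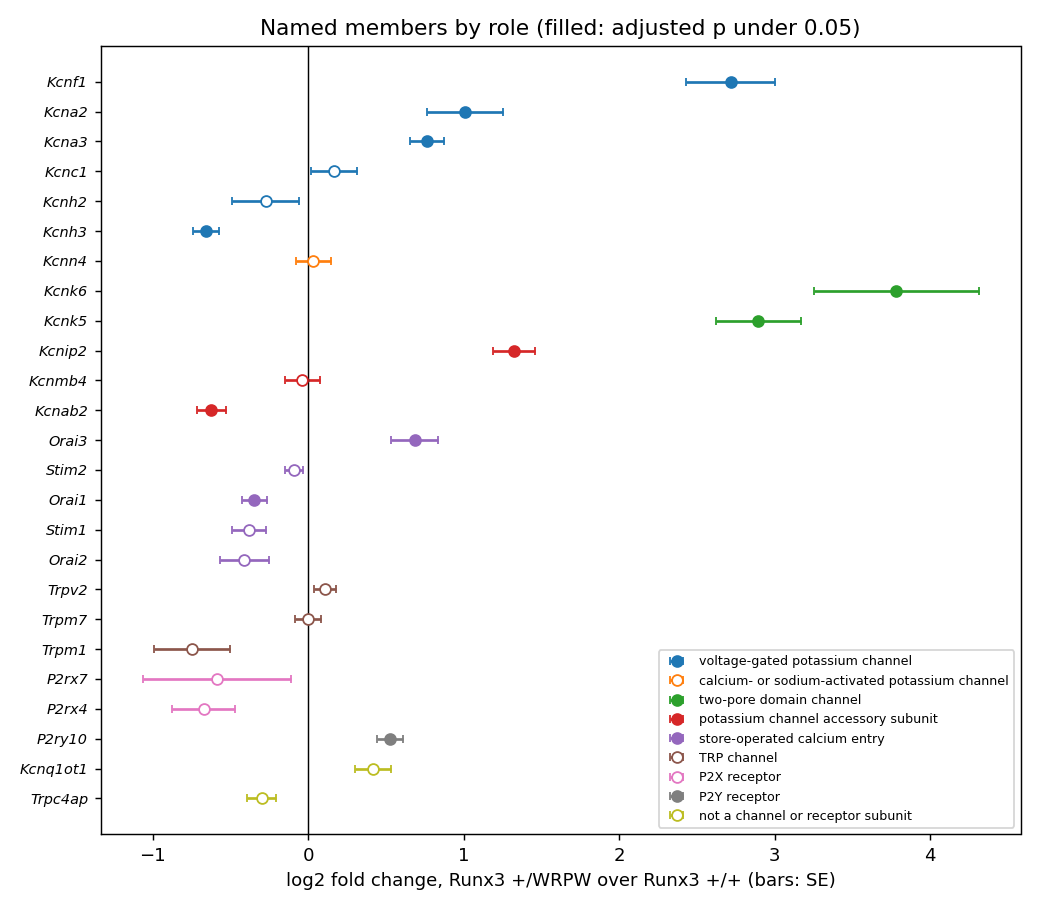
Fitted log2 fold change of Runx3 +/WRPW over Runx3 +/+ (bars, SE) for the genes named by rule, coloured by role, with filled points for an edgeR adjusted p under 0.05; Kcnj15 is left out because its Runx3 +/+ libraries had 1 count each. Kcnk6, Kcnk5 and Kcnf1 lie beyond 2.5, and the 3 lower genes between -0.66 and -0.35.

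All 5 store-operated calcium entry genes were well above 1 CPM; 1 rose, 1 fell and 3 did not pass. Orai3 (chromosome 7, 127769815 to 127775150) was at 22.0 and 16.6 CPM in Runx3 +/+ and at 28.6, 35.6 and 31.0 CPM in Runx3 +/WRPW, a 1.61-fold rise (log2 0.69 ± 0.15 SE, edgeR adjusted p = 0.0358). Orai1 (chromosome 5, 123015074 to 123030452), the pore of the main calcium current of T cells, was at 32.8 and 35.8 CPM in Runx3 +/+ and at 28.3, 27.7 and 26.8 CPM in Runx3 +/WRPW, a fall of 1.27-fold (log2 -0.35 ± 0.08 SE, edgeR adjusted p = 0.0434). Neither pore gene overlapped between genotypes, and both calls were lost when any 1 library was left out. Orai1 was also lost with upper-quartile factors (log2 -0.31, edgeR adjusted p = 0.0523) and with no low-count filter (log2 -0.35, edgeR adjusted p = 0.0842). With 1 library left out, the edgeR adjusted p values were 0.0643 to 0.216 for Orai3 and 0.0879 to 0.265 for Orai1.

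Orai2 was at 169 and 113 CPM in Runx3 +/+ and at 113, 105 and 106 CPM in Runx3 +/WRPW, with overlap between genotypes (log2 -0.41 ± 0.16 SE, edgeR adjusted p = 0.148). Stim1, the main sensor of the calcium store, was at 214 and 246 CPM in Runx3 +/+ and at 180, 164 and 195 CPM in Runx3 +/WRPW. The genotypes of Stim1 did not overlap, but edgeR's test missed the threshold (log2 -0.38 ± 0.11 SE, adjusted p = 0.0704); DESeq2 called it lower. Stim2, the sensor of small losses of store calcium, had a log2 difference of -0.09 with a 95% interval of -0.23 to 0.05. Per kb of exon, on the scale of CPM per kb, the Orai order in Runx3 +/+ was Orai2 (23.1), Orai1 (15.0) and Orai3 (9.02), and in Runx3 +/WRPW Orai2 (17.7), Orai3 (14.8) and Orai1 (12.0). In every Runx3 +/+ library Orai1 was above Orai3 and in every Runx3 +/WRPW library below it.

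**Figure D4:**
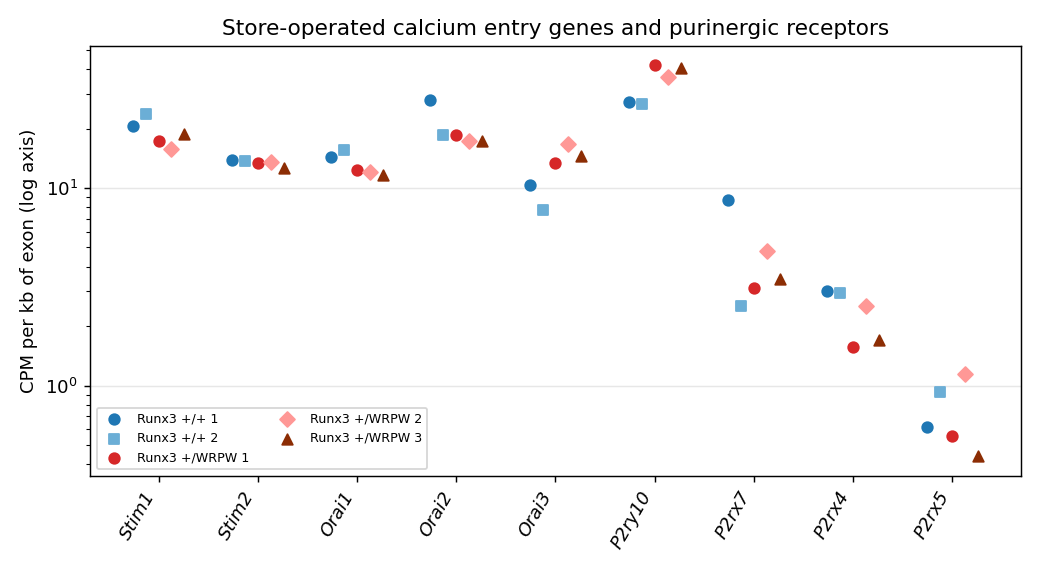
Level per length (CPM per kb of exon, log axis) of the store-operated calcium entry genes and of P2ry10, P2rx7, P2rx4 and P2rx5, 1 point per library. Orai3 points of Runx3 +/WRPW (13.4 to 16.6) lie above those of Runx3 +/+ (7.74 and 10.3), P2ry10 is the highest receptor gene in each library, and P2rx7 differs widely between the Runx3 +/+ libraries (8.65 and 2.52).

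P2ry10 (chromosome X, 107088492 to 107104974) was the only one of 8 P2Y genes above 1 CPM in a genotype. Despite its name it encodes a receptor for the lipid lysophosphatidylserine. It was at 81.4 and 79.0 CPM in Runx3 +/+ and at 124, 108 and 120 CPM in Runx3 +/WRPW, with no overlap, a 1.44-fold rise (log2 0.53 ± 0.08 SE, edgeR adjusted p = 0.0132). The call was lost without Runx3 +/+ library 1 or 2 or Runx3 +/WRPW library 1 (edgeR adjusted p values of 0.170, 0.211 and 0.0560).

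Of the 7 P2X genes, 4 were tested and 0 passed edgeR's test, while 1 of them, P2rx4, had an unadjusted value under 0.05. P2rx7, the ATP-gated receptor that at high ATP can open a large pore and kill T cells, was at 51.6 and 15.0 CPM in the wild type, against 18.6, 28.8 and 20.7 CPM in Runx3 +/WRPW. The Runx3 +/+ libraries lay on either side of all others, so no direction can be given (log2 -0.59 ± 0.48 SE, edgeR adjusted p = 0.471, and log2 0.50 without Runx3 +/+ library 1). P2rx4 lies 15.2 kb downstream of P2rx7 on chromosome 5. It was at 21.2 and 20.7 CPM in Runx3 +/+ and at 10.99, 17.7 and 11.9 CPM in Runx3 +/WRPW, where library 2 was the highest. The fitted log2 change, -0.67 ± 0.20 (SE), missed the threshold (edgeR adjusted p = 0.0812), and without Runx3 +/WRPW library 2 it was -0.89 and passed (edgeR adjusted p = 0.0161). DESeq2 and limma-voom also called P2rx4 lower. P2rx5 was at 1.86 ± 0.533 CPM (SD, n = 2) and 1.70 ± 0.904 CPM (SD, n = 3), and P2rx1 did not exceed 0.274 CPM.

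Of 21 TRP channel genes, 5 were tested and 0 passed edgeR's test, while 2 of them, Trpm1 and Trpm4, had an unadjusted value under 0.05. Trpm7, a magnesium- and calcium-permeable channel with a kinase domain that T cell development needs, was at 243 and 212 CPM in Runx3 +/+ and at 236, 221 and 240 CPM in Runx3 +/WRPW. The fitted log2 change of Trpm7 had a 95% interval of -0.21 to 0.21. Trpv2, the most abundant Trpv gene here, was at 116 and 101 CPM in Runx3 +/+ and at 120, 122 and 117 CPM in Runx3 +/WRPW (log2 0.11, edgeR adjusted p = 0.377). Trpm1, best known from retina and pigment cells, was at 44.0 and 24.4 CPM in Runx3 +/+ and at 20.2, 23.7 and 18.5 CPM in Runx3 +/WRPW. The Runx3 +/+ libraries differed by more than the gap between genotypes (log2 -0.75 ± 0.24 SE, edgeR adjusted p = 0.0987), and without the lower of them, library 2, it passed (edgeR adjusted p = 0.0468). DESeq2 also called Trpm1 lower. Trpm4, a calcium-activated sodium channel, was at 8.10 ± 1.39 CPM (SD, n = 2) and 4.43 ± 1.62 CPM (SD, n = 3; edgeR adjusted p = 0.107). It passed without Runx3 +/WRPW library 2 and with limma-voom.

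The remaining abundant genes of the symbol rule do not encode channels. Trpc4ap, which encodes part of a ubiquitin ligase as well as a binding partner of a TRP channel, was at 300 ± 32.0 CPM (SD, n = 2) and 249 ± 21.0 CPM (SD, n = 3), and did not pass (edgeR adjusted p = 0.0879). Kcnq1ot1, the imprinted antisense RNA of the Kcnq1 locus, was at 37.5 and 33.5 CPM in Runx3 +/+ and at 42.3, 49.95 and 53.1 CPM in Runx3 +/WRPW, without overlap (log2 0.42 ± 0.11 SE, edgeR adjusted p = 0.0651). DESeq2 called Trpc4ap lower and Kcnq1ot1 higher. Kcnq1 itself had 0 counts in every library.

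Ordered by length-scaled level in Runx3 +/+ (CPM per kb of exon), the highest genes were Kcna3 (62.0), Kcnab2 (60.1), Kcnn4 (39.4), Trpc4ap (34.3) and P2ry10 (26.9). Kcna3 and Kcnab2 did not differ beyond their spread there, with Kcna3 at 59.3 and 64.8 and Kcnab2 at 55.7 and 64.5 in the same libraries. In Runx3 +/WRPW Kcna3 was at 107 and the next genes were Kcnn4 (41.2), Kcnab2 (39.9), P2ry10 (39.5) and Kcna2 (39.1). The lowest Runx3 +/WRPW library of Kcna3 was at 100 and the highest value of the other 4 genes, Kcna2 in library 3, at 49.5. Those 4 genes did not differ beyond their spread, since Kcna2 ran from 29.8 to 49.5. Kcnf1 moved from rank 22 to rank 12 and Kcnk5 from rank 29 to rank 18 among the 141 genes.

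Genes that work with these channels and receptors were read from 5 lists of 118 genes that hold none of them, and 22 of 93 tested changed, 7 higher and 15 lower (13.6% of all genes tested changed). Of 30 calcium signalling genes, 1 rose, 4 fell and 25 did not pass. Atp2a3, the pump that refills the calcium store of blood cells, went from 881 and 997 CPM to 475, 485 and 452 CPM (log2 -1.03 ± 0.08 SE, edgeR adjusted p = 0.00158). The calcium-dependent kinase Camk4 fell by 0.82 on the log2 scale and the mitochondrial calcium uniporter Mcu by 0.96, while the calcineurin subunit Ppp3cc rose by 1.26.

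Among 16 tested genes of ATP and adenosine, 2 rose, 4 fell and 10 did not pass. Panx1, a channel through which cells release ATP, went from 131 and 126 CPM to 71.7, 78.3 and 72.2 CPM (log2 -0.83 ± 0.06 SE, edgeR adjusted p = 0.00139). Entpd1, which encodes CD39 and breaks down extracellular ATP, went from 3.19 and 1.57 CPM to 26.6, 22.3 and 10.9 CPM (log2 3.05 ± 0.49 SE, edgeR adjusted p = 0.0141). Adk, adenosine kinase, fell by 0.64 and the G protein subunit Gnai2 by 0.37 on the log2 scale.

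The sodium, chloride and volume list had 2 higher, 5 lower and 17 not passing of 24 tested. Lrrc8a, the obligatory subunit of the volume-regulated anion channel, was at 102 and 189 CPM in Runx3 +/+ and at 37.1, 43.9 and 38.4 CPM in Runx3 +/WRPW (log2 -1.91 ± 0.24 SE, edgeR adjusted p = 0.00715). Its partner Lrrc8d rose by 0.59 on the log2 scale, the chloride transporter Clcn6 rose by 0.37, and the sodium pump subunit Atp1b1 fell by 0.94. Other cation channels gave 2 higher, 2 lower and 13 not passing of 17 tested, with the endolysosomal channels Tpcn1 (log2 -1.20) and Mcoln3 (log2 -1.23) lower and Hcn3 (log2 0.74) and the mechanosensitive Piezo1 (log2 0.29) higher. Of 6 tested magnesium transport genes 0 passed edgeR's test, while 2 of them, Magt1 and Cnnm2, had an unadjusted value under 0.05; DESeq2 called 2 and limma-voom 0. Magt1, a magnesium transporter of lymphocytes, was at 179 and 107 CPM in Runx3 +/+ and at 96.0, 91.1 and 108 CPM in Runx3 +/WRPW, with overlap. Mrs2, the mitochondrial magnesium channel, had a log2 difference of -0.08, and of 0.04 without Runx3 +/WRPW library 2.

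Without Runx3 +/+ library 1, 11 of the 5 lists' genes changed, and 6 without Runx3 +/+ library 2. Leaving out Runx3 +/WRPW libraries 1, 2 and 3 in turn gave 11, 18 and 11. Of the genes named from the lists, Atp2a3, Panx1, Lrrc8a, Tpcn1 and Mcoln3 passed in every fit that left out 1 library; the other named calls were lost in at least 1 of them.

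**Figure D5:**
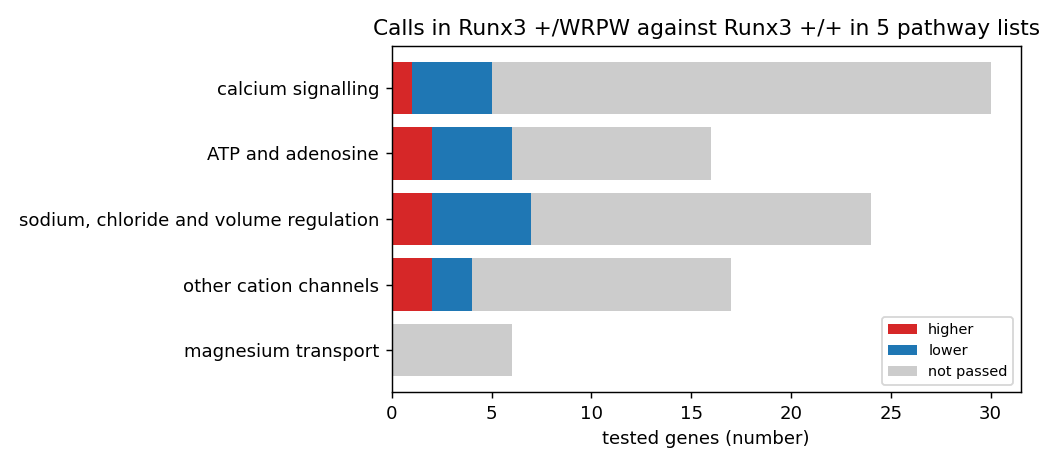
Number of tested genes higher, lower or not passing in Runx3 +/WRPW for the 5 lists of genes that act with the channels and receptors (stacked bars from 0). Lower genes outnumber higher ones in the calcium, the ATP and adenosine and the sodium, chloride and volume lists, and 0 magnesium transport genes pass.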

How the data were processed

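The deposited values are raw read counts per gene symbol, 1 file per library, with no normalization by the authors. Tools named in the submitters' processing notes are HISAT2 (2.2.1), on the mouse build mm10, and cutadapt (4.0). The same notes name edgeR (3.36.0) beside featureCounts (2.0.8). Their annotation, strand and multi-mapping settings are not stated there. Total RNA of sorted cells was used, per the labels' protocols. Files were assigned by the GEO records, although the header of Runx3 +/+ library 2 carries a 3 and that of Runx3 +/WRPW library 2 no sample name. No 2 libraries agreed within sampling noise (chi-square per gene of at least 10.9).

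Genotypes were compared in edgeR 4.0.16 (R 4.3.3) with its quasi-likelihood test: TMM factors of 0.981 to 1.03, genes kept by filterByExpr (minimum count 10), and Benjamini-Hochberg adjustment over all 13666 genes tested. Standard errors were obtained from the log2 change and the square root of the F statistic. CPM values use library totals. Exon lengths came from GENCODE M21, coordinates and promoters from RefSeq GRCm38.p6. The pipeline was tested on simulated data. The genes and lists were chosen with earlier results of these data known. Named genes are those called at 1 CPM or more, those at 10 CPM or more, and known T cell channels; from each list, up to 4 called genes with the smallest p-values, or the 2 highest where none was called. Trpm4, P2rx5, Kcnk7, Kcnd1, Kcnip3, Cnnm2 and the genes carried by library 2 were named after their values were seen. Results were recomputed with other scaling factors (RLE, upper quartile), other tests (DESeq2 1.42.0, voom in limma 3.58.1), other low-count filters and CPM thresholds, robust dispersions, a replicate block, and each library left out.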

Additional observations from a re-analysis of the deposited data

How the results depend on the processing

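Among the single genes named, 485 of 584 recomputed log2 changes kept direction and side of the threshold, 82 lost a call, 9 gained one and 8 changed sign, none of the 8 in a called gene. Trpm7 changed sign with upper-quartile factors (0.028) and with genes kept only at 1 CPM in all libraries of a genotype (0.0022). With 1 library left out, log2 changes ran from -0.098 to 0.057 for Trpm7, -0.61 to 0.11 for Kcnh2, -1.23 to 0.50 for P2rx7, -0.18 to 0.23 for Kcnn4 and -0.18 to 0.036 for Mrs2. Over all genes, 1855 were called, 2705 with DESeq2 (19.8% of the genes it tested), 1079 with no low-count filter (28583 genes tested) and 277 to 1431 with 1 library left out. Channel and receptor genes called numbered 13 (10 higher, 3 lower), 18 with DESeq2 (11 higher, 7 lower), 15 with limma-voom (10 higher, 5 lower), 10 with no low-count filter, and 3 to 13 with 1 library left out; those at 1 CPM numbered 12, and 3 to 12. The 5 lists had 22 calls, 39 with DESeq2 and 6 to 18 with 1 library left out. Genes reaching 1 CPM numbered 53, 35 at a threshold of 2 CPM, 35 where each library of a genotype had to reach it, and 36 to 59 with 1 library left out. The replicate block, by library number, gave 754 calls over all genes, 8 channel and receptor genes (Kcnh3, Kcnip3, Orai1, Orai3 and P2ry10 were lost) and 12 list genes. Deviations from the genotype mean had correlations of -0.049 and 0.0024 between same-numbered libraries. With n = 2 in Runx3 +/+ the deviations of its libraries mirror each other, so these values cannot exclude pairing. The numbers are not taken as pairs because the labels do not say that they mark a shared animal or day. The replicate block fits more terms to the same libraries, and Runx3 +/WRPW library 3 has no same-numbered Runx3 +/+ library. Apart from these limits of the block, fewer libraries or more genes tested, the cause of these differences was not tested. With 0 counts in a library, a gene was read as lying below the floor of 3 counts, 0.0686 to 0.191 CPM, and not as absent.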
